A study of Homo sapiens with 7 samples.

Results

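PTMS and PTMA encode parathymosin and prothymosin alpha, a pair of related small nuclear proteins. Their rows were taken from the isoform table by Ensembl gene ID, ENSG00000159335 for PTMS and ENSG00000187514 for PTMA, which gave 2 genes of 14294 and 201 isoforms of 386982. PTMS had been picked because it was far lower in most of these same libraries than in the control, so its totals are given as a description with no test. PTMA was set beside it as its relative.

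The cells were HUES66, a human embryonic stem cell line in long use, and their polyadenylated RNA was read with PacBio long reads, in which 1 read stands for 1 cDNA molecule. Cas13d, an RNA-guided nuclease that cuts RNA, was aimed at isoforms of RBFOX2, the gene of a splicing regulator. The 7 libraries are 1 control, labelled WT, and 6 named here by the G number of their label: G3 (RBFOX2 id 178147), G5 (178149), G11 (178136), G12 (178135), G13 (178145) and G14 (178146). The description label of all 7 reads piggyBac, a transposon used to insert DNA into a genome, and all 7 cultures, the control included, received doxycycline at 1 µg/ml and were labelled 24 h. Whether the control cells also carried a guide is not given in the sources used here. Each group has 1 library, so no difference below has a replicate check, all 6 comparisons share the control library, and the 95% intervals cover counting error only.

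Both proteins are highly acidic, lack a stable fold and reside mainly in the nucleus. Prothymosin alpha binds linker histone H1 and loosens chromatin, and it is abundant in dividing cells. In the cell it has also been linked to KEAP1, the sensor of oxidative stress, and to the apoptosome, the complex that activates caspases. Parathymosin likewise binds linker histone H1.

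PTMS lies on the plus strand of chromosome 12 at 6765516 to 6770952 and PTMA on the plus strand of chromosome 2 at 231706895 to 231713541 (GRCh38, GENCODE 29). The genes share an architecture. PTMA was chosen as a relative of PTMS, so this likeness is not independent of the choice of members. In GENCODE 29 the main form of each has 5 exons, exon 1 carries 45 nt of coding sequence, and exon 2 is 72 nt long and wholly coding. The coding sequence without the stop codon has 306 nt in PTMS (ENST00000309083.6) and 333 nt in PTMA (ENST00000341369.11). Of 102 codons in PTMS, 18 are GAA and 21 are GAG, which both encode glutamate, and 7 are GAT and 1 is GAC, which both encode aspartate. Of 111 codons in PTMA, 17 are GAA, 18 are GAG, 10 are GAT and 9 are GAC. Codons for these acidic residues thus make up 46.1% of PTMS and 48.6% of PTMA. The 30 codons with the most glutamate of each gene are shown because they carry this shared feature, with GAG codons in capitals (5′ to 3′, from GENCODE 29 transcripts on GRCh38).
PTMS: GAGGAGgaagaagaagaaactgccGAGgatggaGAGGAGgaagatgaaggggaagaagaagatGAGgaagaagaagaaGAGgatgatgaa
PTMA: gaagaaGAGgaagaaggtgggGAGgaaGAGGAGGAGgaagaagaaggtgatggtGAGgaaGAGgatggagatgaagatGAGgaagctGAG
The PTMS stretch spans codons 46 to 75 and holds 14 GAA and 7 GAG codons, and the PTMA stretch spans codons 55 to 84 and holds 11 GAA and 9 GAG codons. The stretches differ little in base composition, at 46.7% GC in PTMS and 51.1% in PTMA. The genes differ outside the coding sequence. The 329 nt before the PTMS coding sequence have 82.4% GC and the 504 nt after it 62.1%, against 64.4% over 191 nt and 37.8% over 688 nt in PTMA.

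Each gene has a splice choice upstream of these stretches, at the 5′ edge of exon 3. In PTMA that exon is 97 nt long in ENST00000341369 and 94 nt long in ENST00000409115, and the longer form adds 3 nt (chr2:231711887-231711889). In PTMS it is 79 nt long in ENST00000309083 and 156 nt long in ENST00000389462, and the longer form adds 77 nt (chr12:6769844-6769920). The spliced sequences around exon 2 and exon 3 are given on the plus strand with the added bases in capitals, to show how unequal these choices are.
PTMA 97-nt form: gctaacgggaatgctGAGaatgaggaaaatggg
PTMA 94-nt form: gctaacgggaatgctaatgaggaaaatggg
PTMS 156-nt form: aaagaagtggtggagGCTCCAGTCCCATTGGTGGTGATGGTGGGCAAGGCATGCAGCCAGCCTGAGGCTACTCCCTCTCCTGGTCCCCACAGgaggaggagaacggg
PTMS 79-nt form: aaagaagtggtggaggaggaggagaacggg
The added PTMA bases are a GAG codon. The added PTMS segment is not a multiple of 3 nt long, and the annotated coding sequence of ENST00000389462 ends in exon 4 rather than exon 5. The added PTMS segment holds 1 copy of GCATG, the letters that RBFOX proteins are known to bind as RNA, starting at its base 34, and 1 overlapping copy of the reverse complement CATGC. The GENCODE 29 transcripts of ENST00000309083, ENST00000341369 and ENST00000409115 hold 0 copies of either. Among 996365 windows of 77 nt tiled over the transcripts of reference isoforms in the table, 6.42% hold GCATG and 11.1% hold it on either strand, so a match of these letters is common and shows no binding.

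**Figure D1:**
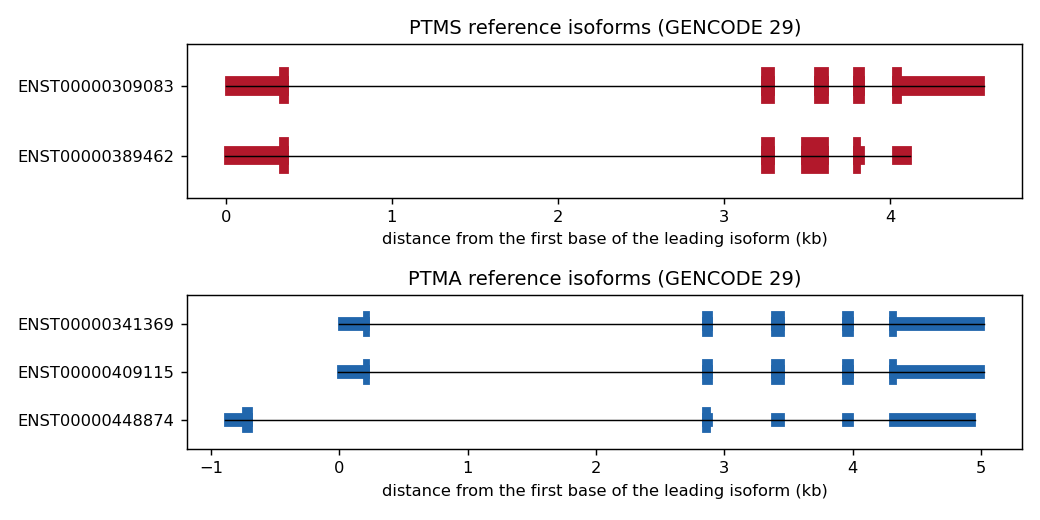
Exons of the reference isoforms of PTMS (top) and PTMA (bottom) in GENCODE 29, by distance in kb from the first base of the leading isoform. Tall boxes are coding and low boxes are not; the exon 3 of PTMS is 79 nt or 156 nt long, and the first exon of ENST00000448874 lies upstream of the other PTMA starts.

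The control was the shallowest library, with 16801842 reads, and G12 the deepest, with 26678538. RBFOX2, the targeted gene, stood at 107 TPM in the control, 42.1 TPM in G3, 55.9 TPM in G13 and 82.9 to 106 TPM in the other 4 G libraries. TPM here scales a read count by the reads of the library and holds no length term. All 8 pluripotency markers were present in every library, with a summed level of 1620 to 2070 TPM. Single markers varied more, such as DNMT3B from 13.4 to 68 TPM and POU5F1 from 377 to 915 TPM. Of 9 markers of differentiated lineages, 2 were listed (TBXT and GATA4), with a summed level of at most 0.192 TPM. An isoform was listed only with at least 1 read in the control. A marker with reads in G libraries alone would thus be missing, so its absence there is not shown. In bulk RNA, fewer cells with a transcript and less transcript per cell cannot be told apart.

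PTMS was high in the control and G3, intermediate in G5 and low in the other 4 libraries. Its level was 122 TPM in the control (95% interval 116 to 127, 2042 reads), 97.9 TPM in G3 (93.4 to 103, 1748 reads) and 32.6 TPM in G5 (30.5 to 34.9, 831 reads). It was 17.5 TPM in G12 (15.9 to 19.1, 466 reads), 14.2 TPM in G11 (12.6 to 15.9, 295 reads), 13.3 TPM in G14 (11.8 to 14.9, 278 reads) and 10.6 TPM in G13 (9.28 to 12, 241 reads). The control was above every G library, and the range from the control to G13 was 11.5-fold (10.1 to 13.2).

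Relative to the control, PTMS stood at 80.6% in G3 (95% interval 75.6 to 85.9) and 26.9% in G5 (24.8 to 29.1). In G12 it stood at 14.4% (13 to 15.9), in G11 at 11.7% (10.3 to 13.2), in G14 at 10.9% (9.60 to 12.4) and in G13 at 8.70% (7.58 to 9.95). Neighbours in this order had intervals apart from 1 in their ratio except G14 and G11, whose ratio was 1.07 (0.903 to 1.26). As log2 ratios of TPM + 0.5 these differences were -0.31 in G3, -1.88 in G5, -2.76 in G12, -3.06 in G11, -3.15 in G14 and -3.46 in G13, with a median of -2.91. Genes were compared where their TPM averaged 5 or more over the libraries, and among these 7877 the PTMS median ranked 9 from the lowest.

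PTMS was at least 2-fold below the control in 5 of 6 G libraries, G3 being the exception. Over all 7877 genes the share at least 2-fold lower was 5.14% in G3, 8.79% in G12, 10.1% in G5, 10.4% in G11, 14.6% in G13 and 18.9% in G14, and 0.800% were that low in all 6. Since the gene was picked on this contrast, nothing is read from its place among those genes. Over the 6 G libraries the order of PTMS did not follow that of the targeted gene. G3, with the lowest RBFOX2 level, had the highest PTMS level of the G libraries, and G14, at 98.6% of the control for RBFOX2, had the second lowest. The other 4 ranked alike for both genes, with RBFOX2 at 52.2% of the control in G13, 77.3% in G11, 82.5% in G12 and 90.3% in G5. These 4 are what is left once G3 and G14 are set aside after their values were seen. No relation to the RBFOX2 level is read from them.

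PTMA showed no such spread. It was at 23.6 TPM in the control (95% interval 21.4 to 26.1, 397 reads), 27.4 TPM in G3 (25 to 29.9, 489 reads) and 25.4 TPM in G5 (23.5 to 27.4, 646 reads). It was at 24.7 TPM in G12 (22.9 to 26.7, 659 reads), 24.4 TPM in G11 (22.3 to 26.6, 508 reads), 24.3 TPM in G13 (22.3 to 26.4, 554 reads) and 21.3 TPM in G14 (19.4 to 23.4, 446 reads). The control lay second lowest, inside the range of the G libraries.

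Relative to the control, PTMA ran from 90.1% in G14 (95% interval 78.5 to 103) to 116% in G3 (101 to 133), and the interval excluded 100% in G3 alone. No neighbours in the order of PTMA levels had an interval of their ratio apart from 1, while the ends of the order, G3 and G14, differed 1.29-fold (1.13 to 1.47). The log2 ratio was 0.21 in G3, 0.10 in G5, 0.06 in G12, 0.04 in both G11 and G13, and -0.15 in G14, with a median of 0.05. PTMA was at least 2-fold higher or lower in 0 of 6 G libraries. The median log2 ratio of all genes compared lay between -0.21 (G13) and 0.14 (G5).

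Both levels depend on how reads were assigned. The gene name table lists 12 genes named as PTMA pseudogenes, GENCODE 29 lists 7 of that kind and 0 for PTMS, and 0 of the PTMA copies had reads under their own ID in the table. How reads that match both the gene and a copy were assigned is not given in the sources used here, so the TPM of PTMA is uncertain. PTMS overlaps MLF2, a gene on the opposite strand, at its 5′ end, and whether the counting used strand is likewise not given.

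**Figure D2:**
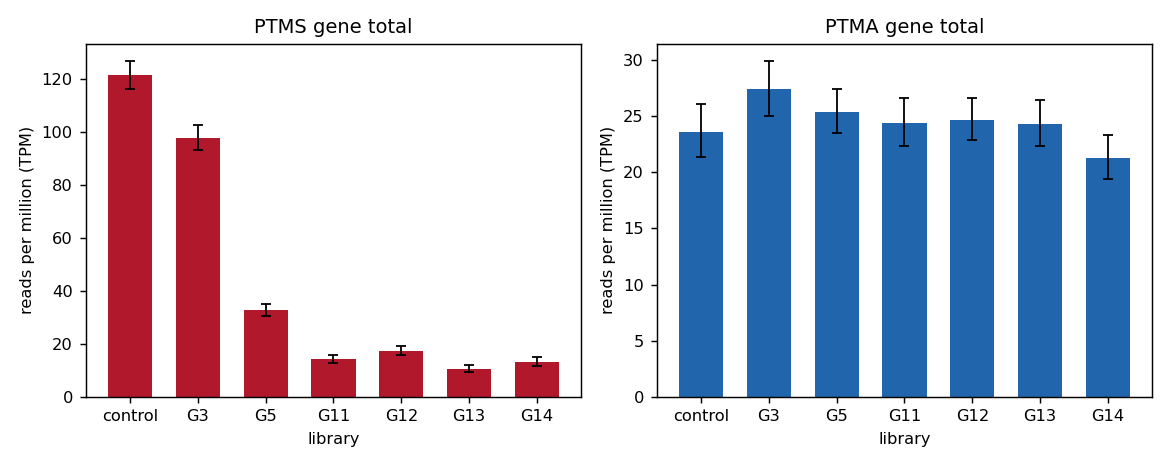
Level of PTMS (left) and PTMA (right) in each library, in TPM, with 95% Poisson intervals for counting error as error bars. PTMS runs from 122 TPM in the control to 10.6 TPM in G13, while PTMA stays between 21.3 and 27.4 TPM; the vertical axes differ.

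Because both genes were read in the same library, the difference of their log2 ratios does not depend on the library scaling, apart from the added 0.5 TPM. PTMS minus PTMA was -0.52 in G3, -1.98 in G5, -2.83 in G12, -3.00 in G14, -3.10 in G11 and -3.50 in G13. PTMS was the lower of the pair relative to the control in 6 of 6 G libraries, by a median of 2.91 on the log2 scale. The Pearson correlation of their log2 levels over the 7 libraries was 0.45.

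In these libraries the ratios of short and of GC-rich transcripts tended to be lower, so the members were placed on both scales. PTMS transcripts averaged 1126 nt and 66.3% GC, at percentiles 7.92 for length and 98.7 for GC content of the genes compared. PTMA transcripts were about as short, at 1208 nt and percentile 9.77, but had 46.0% GC, at percentile 42.6. With a quadratic surface of length and GC content removed from each library, the PTMS log2 ratio became 0.13 in G3, -0.90 in G5, -1.62 in G14, -1.95 in G12, -2.01 in G11 and -2.38 in G13. The sign in G3 thus turned. The median fell in size from -2.91 to -1.79, and 5 of 6 libraries remained below the control. PTMA became 0.11 (G13) to 0.60 (G3), above the control in 6 of 6, with a median of 0.30. As measured, 21.1% of all genes compared were above the control in 6 of 6. That share was not computed with the trend removed. PTMS minus PTMA was then -0.46 in G3 and between -1.44 (G5) and -2.49 (G13) in the others.

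**Figure D3:**
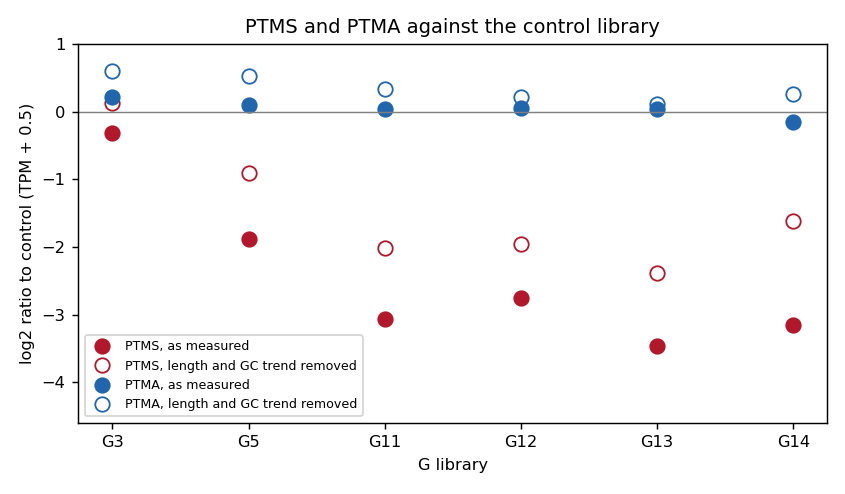
Log2 ratio to the control, computed on TPM + 0.5, for PTMS and PTMA in the 6 G libraries, as measured (filled) and with the trend over transcript length and GC content removed (open). Filled PTMS points run from -0.31 to -3.46 and open ones from 0.13 to -2.38, while PTMA points lie between -0.15 and 0.60.

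**Figure D4:**
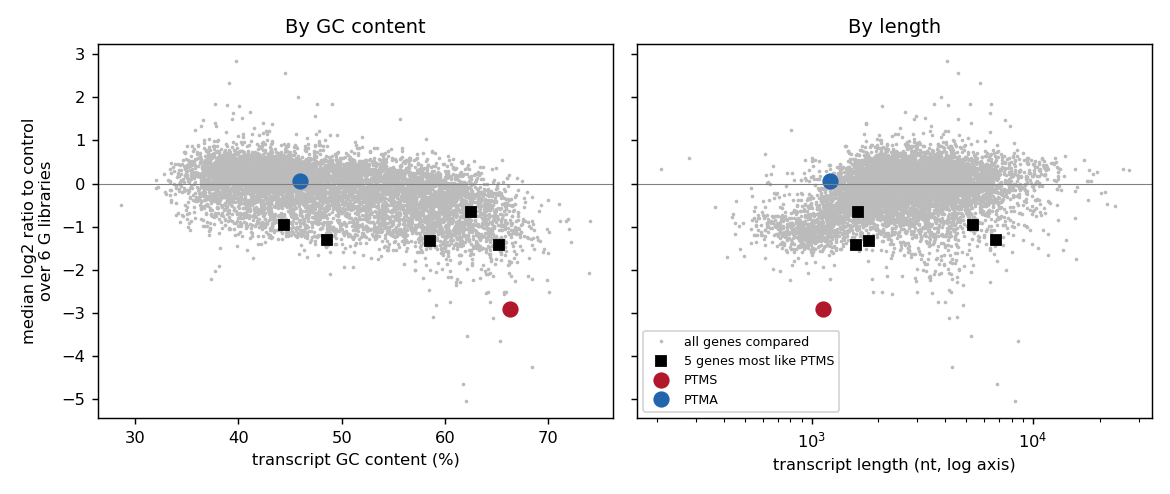
Median log2 ratio to the control over the 6 G libraries against transcript GC content in % (left) and transcript length in nt on a log axis (right), for the genes compared that had both values. PTMS (66.3% GC, -2.91) lies at the GC-rich, short end and below most genes there, PTMA (46.0% GC, 0.05) lies near 0, and the 5 genes most like PTMS (squares) span 44.4% to 65.2% GC.

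Isoform shares divide the reads of an isoform by those of its gene. PTMS was represented by 159 isoforms, of which 2 carried a reference ID and 157 a hashed ID with no exon structure in the table. A row entered the table only with at least 1 read in the control, and 123 PTMS isoforms had exactly 1 read there. ENST00000309083.8 (chromosome 12, 6766354 to 6770958) was the only PTMS isoform holding 5% or more of the gene on average, at 88.4%. Its level was 102 TPM in the control, 89.8 TPM in G3, 29.4 TPM in G5, 15.6 TPM in G12, 12.6 TPM in G11, 11.8 TPM in G14 and 9.08 TPM in G13. This isoform followed the gene total and stood at 8.93% of the control in G13 (95% interval 7.69 to 10.3) and 88.2% in G3 (82.4 to 94.5).

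The share of ENST00000309083.8 was 83.7% of PTMS reads in the control (Wilson 95% interval 82.0 to 85.2) and higher in each G library, from 85.9% in G13 (80.9 to 89.7) to 91.6% in G3 (90.3 to 92.9). Correspondingly, hashed isoforms held 13.4% in the control (12 to 15) and 5.03% (G3) to 9.96% (G13) elsewhere. Isoforms with a single control read held 6.02% in the control and 0.830% (G13) to 3.05% (G11) in the G libraries. The rule that a row needs a control read favours the control in these shares by construction. It favours the control in the gene totals as well. With reference isoforms only, the PTMS log2 ratio was -0.18 in G3 instead of -0.31. In the other G libraries it then ran from -1.77 (G5) to -3.40 (G13), against -1.88 and -3.46 for the totals.

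The longer exon 3 form of PTMS, ENST00000389462.8, was low in the same libraries as the gene total. Its reads numbered 59 in the control, then 58 in G3, 29 in G5, 20 in G12, 12 in G14, 10 in G13 and 9 in G11. Of the reads of both reference forms it held 3.34% in the control (Wilson 95% interval 2.60 to 4.28), 3.32% in G11 (1.76 to 6.19), 3.49% in G3, 3.73% in G5, 4.58% in G12, 4.61% in G13 and 4.62% in G14 (2.66 to 7.89). The interval of every G library overlapped that of the control. With 9 to 58 reads of this form per G library, the overlap does not show that the splice choice was unchanged. The row of this isoform ended at 6770951, while GENCODE 29 ends the transcript at 6770498, so the ID names the splice form rather than the 3′ end.

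Nearly all PTMS reads belonged to isoforms with nearly the same start and end. An isoform has a single start and end for all libraries, so the ends of single reads in a library were not measured. The leading isoform counts as within 100 nt of itself and alone held 83.7% (control) to 91.6% (G3) of the reads. Isoforms starting within 100 nt of the leading isoform held 99.3% of reads in the control and 99.3% to 100% in the G libraries. Those ending within 100 nt of it held 2041 of 2042 reads in the control and all reads in the 6 G libraries. Starts more than 100 nt downstream held 15 reads in the control and at most 6 in a G library. A further 24 rows that lay inside PTMS but carried no gene ID held 46 reads in the control and 3 to 14 in a G library.

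PTMA was spread over more isoforms, 5 with a reference ID and 37 hashed. Those holding 5% or more on average numbered 5: ENST00000341369.11 (22.1%), ENST00000409115.8 (17.6%) and hashed isoforms 1 (12.2%), 2 (10.2%) and 3 (9.32%), numbered by their mean share. They spanned 231708514 to 231713558 on chromosome 2. ENST00000341369.11 had 87 reads in the control, 102 in G14, 106 in G13, 112 in G11, 118 in G3, 139 in G5 and 152 in G12. Its share of PTMA ran from 19.1% (G13) to 24.1% (G3) with 21.9% in the control, and the intervals overlapped. ENST00000409115.8 held 18.9% in the control (15.3 to 23.0) and from 13.4% (G13, 10.8 to 16.4) to 21.3% (G3, 17.9 to 25.1) in the G libraries. The intervals of G13 and G3 did not overlap each other, while both overlapped that of the control. Such overlap does not show that a share was unchanged, and the difference between G13 and the control was not tested.

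The 3-nt choice in exon 3 of PTMA varied little. Of the reads of both reference forms, the 97-nt form held 53.7% in the control (Wilson 95% interval 46.0 to 61.2, 162 reads), 53.2% in G3, 54.4% in G11, 54.5% in G12, 57.3% in G14, 58.9% in G13 and 59.7% in G5 (53.3 to 65.7). All 7 intervals overlapped, which with 162 to 279 reads a library does not show that the choice was unchanged.

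Hashed isoform 3 of PTMA (231708525 to 231713538) was the exception among the 5. It had 20 reads in the control (1.19 TPM), 38 in G3 (2.13 TPM), 40 in G11 (1.92 TPM), 47 in G14 (2.24 TPM), 62 in G12 (2.32 TPM), 76 in G5 (2.99 TPM) and 71 in G13 (3.11 TPM). The control was the lowest of the 7. Its level stood at 262% of the control in G13 (95% interval 157 to 454), 251% in G5 (152 to 434), 195% in G12 (116 to 341), 189% in G14 (110 to 336), 179% in G3 (101 to 324) and 161% in G11 (92.1 to 291). The share within PTMA was 5.04% in the control (3.28 to 7.65) and 7.77% (G3) to 12.8% (G13, 10.3 to 15.9) in the G libraries. It was 1 of 5 isoforms examined, the intervals are not adjusted for that number, and all 6 ratios share the 20 control reads. Its exon structure is not in the table.

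PTMA reads also came from upstream starts. Isoforms starting more than 100 nt upstream of the leading isoform numbered 6 and held 5.04% of PTMA in the control (3.28 to 7.65) and, from low to high, 5.32% in G3, 5.73% in G5, 6.89% for G11, 7.44% in G12, 9.19% in G14 and 9.57% in G13 (7.39 to 12.3). In TPM they stood at 195% of the control in G13 (95% interval 115 to 345), and the intervals of the other 5 G libraries held 100%. Among them was ENST00000448874.5, which begins at an upstream first exon and which GENCODE 29 classes as a target of nonsense-mediated decay, the pathway that removes messages with early stop codons. It had 2 reads in the control, 6 in G3, 11 in G11, 14 in G5, 16 in G12, 17 in G13 and 19 in G14. With 2 control reads its ratio is loose, 762% in G14 (184 to 6750), and its share of PTMA was 0.504% in the control (0.138 to 1.82) but 4.26% in library G14 (2.74 to 6.56). This isoform was singled out after its values were seen. At the 3′ end, isoforms ending within 100 nt of the leading one held 97.5% of PTMA reads in the control (95.4 to 98.6) and 98.6% (G13) to 100% (G5) elsewhere.

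**Figure D5:**
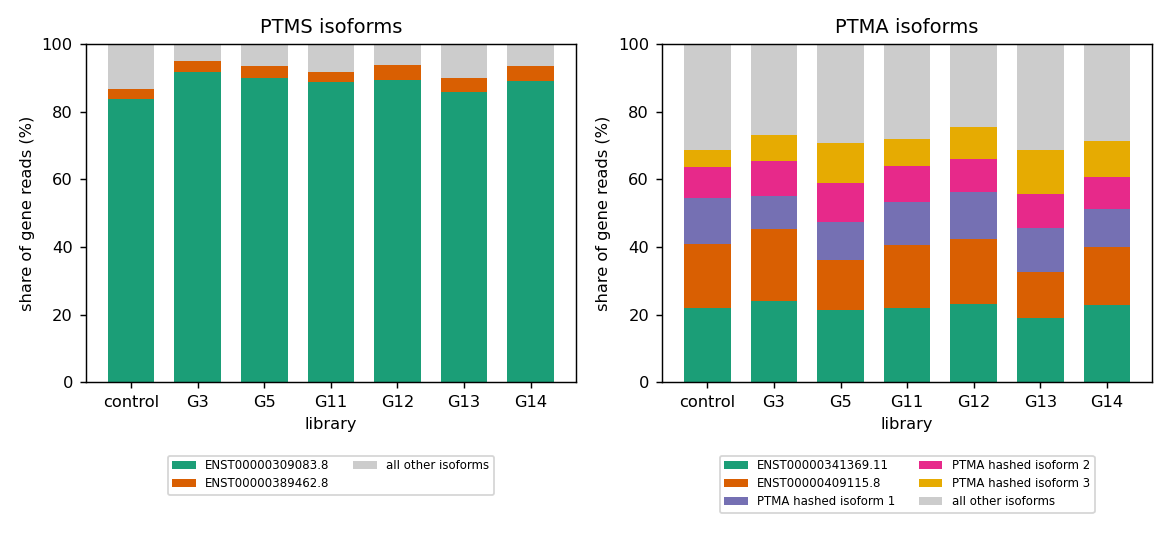
Share of each gene's reads, in %, held by its main isoforms in each library, for PTMS (left) and PTMA (right), with all other isoforms in grey. ENST00000309083.8 holds 83.7% to 91.6% of PTMS, while no PTMA isoform exceeds 24.1% and hashed isoform 3 is smallest in the control at 5.04%.

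The distance between isoform usage in a G library and in the control, which is 0 for equal shares and 1 for no shared isoform, was 0.091 (G5) to 0.108 (G14) for PTMS and 0.118 (G11) to 0.194 (G13) for PTMA. The distance of PTMS thus varied little between G3 (0.095) and G13 (0.097), whose PTMS totals differed most among the G libraries. These distances include counting noise, which is larger at fewer reads. They also depend on the rule that a row needs a control read. Of 159 PTMS isoforms, 100 had reads in the control alone, as had 12 of 42 for PTMA. Such rows add the same amount to the distance of every G library. The like values in G3 and G13 therefore do not show that PTMS isoform usage was stable.

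Genes whose pattern was most like each member were found by Pearson's r of log2(TPM + 0.5) over the 7 libraries, among 6618 other genes whose TPM averaged 10 or more. For PTMS they were SETD5 (r = 0.992), PTOV1 (0.990), DECR2 (0.988), RPS19 (0.984) and RNF168 (0.981). They shared its high level in the control and G3, but moved less: SETD5, a chromatin regulator, was at 25.8 TPM in both and at 7.06 TPM in G13, and PTOV1 was at 199 TPM in the control, 228 TPM in G3 and 55.9 TPM in G13. Their median log2 ratios ran from -0.66 (DECR2, a peroxisomal enzyme of fatty acid breakdown) to -1.43 (PTOV1). Their length and GC content did not all resemble those of PTMS: PTOV1 (1578 nt, 65.2% GC) was near it, while SETD5 (6827 nt, 48.6% GC) and RNF168 (5347 nt, 44.4% GC), a ubiquitin ligase of DNA damage signalling, were not. Once the trend over length and GC content was removed, the medians of RNF168 (-0.98) and SETD5 (-1.11) stayed near their measured values of -0.97 and -1.31, that of PTOV1 became -0.47 and that of DECR2 -0.02. RPS19, a ribosomal protein gene, has copies elsewhere in the genome and its level is uncertain for the same reason as that of PTMA.

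For PTMA the 5 most alike were RNF130 (r = 0.943), NSUN4 (0.938), STK16 (0.921), CYREN (0.916) and MMADHC (0.911). All 5 had median log2 ratios near 0, from -0.03 (MMADHC) to 0.09 (RNF130), and like PTMA were highest in G3 and lowest in G14. NSUN4 spread most among them, from 15.7 TPM in G3 to 7.64 TPM in G14 against 10.7 TPM in the control. Such correlations over 7 libraries of 1 series are descriptions of these libraries.

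The chromosome neighbours of PTMS were measured in the same way. MLF2 on the opposite strand overlaps the annotated start of PTMS by 1.96 kb and was at 1190 TPM in the control and 757 (G14) to 1360 TPM (G3) in the G libraries. COPS7A, a subunit of the COP9 signalosome 33.6 kb away, was above the control in 6 of 6, at 165 to 181 TPM against 147 TPM. So were 21.1% of all genes compared. PIANP, 64.7 kb away, was at 8.87 TPM in the control and 1.49 TPM in G13. It was below the control in 4 of 6 G libraries. In G3 (12.6 TPM) and in G5 (11 TPM), where PTMS was low, PIANP was above it. Its median log2 ratio was -1.05, the only value at or past 2-fold among the 12 neighbours of both members. That median was -0.46 once the trend over length and GC content was removed. On the other side were CDCA3, a cell division gene (33.0 to 63.4 TPM against 105 TPM, just short of 2-fold in its median), USP5, a ubiquitin protease (-0.43), and TPI1, a glycolytic enzyme (-0.71). USP5 ran from 0.50 in G3 to -1.13 in G13. Beside PTMA, NCL, PSMD1, COPS7B and ARMC9 had medians of 0.02 to 0.45, PDE6D -0.48 and DIS3L2, an RNA-degrading enzyme, -0.80. With the trend removed, the medians were -0.84 for CDCA3, -0.04 for USP5, -0.52 for TPI1, -0.05 for PDE6D and -0.72 for DIS3L2. Those of MLF2 (-0.23) and NCL (0.02) changed sign, to 0.13 and -0.13.

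Genes tied to the known roles of these proteins were listed by function. Of 25 acidic chromatin proteins and histone chaperones, 24 were compared, and 0 or 1 were at least 2-fold lower and 1 or 2 at least 2-fold higher in each G library. Their median log2 ratio was 0.13 (G11) to 0.25 (G5), beside -0.21 to 0.14 for all genes compared. The share of all genes at least 2-fold higher was 0.533% in G5, 0.546% in G12, 0.724% in G11, 1.04% in G13, 1.89% in G3 and 3.97% in G14. That at least 2-fold lower ran from 5.14% in G3 to 18.9% in G14. DEK, an acidic chromatin protein, had the highest median (1.24): the control held 177 TPM and the G libraries 365 to 524 TPM. NPM3, a small nucleoplasmin, had the lowest (-1.21), where the control held 239 TPM and the other libraries 65.2 to 133 TPM. The other members compared had medians from -0.64 (HMGN3, which became 0.17 once the trend over length and GC content was removed) to 0.59 (DAXX). With that trend removed the median of NPM3 was -0.64, short of 2-fold, and that of DEK 2.08. Besides DEK, those at least 2-fold higher in a library were CHAF1A in G3 (1.31) and SSRP1 in G5 (1.11). Of 4 linker histone genes, 0 were listed. Only polyadenylated RNA was read and the filters of the isoform caller are not given, so this does not show that they were not expressed.

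Of 12 genes of the KEAP1 pathway, 10 were compared, and 0 to 2 were at least 2-fold lower and 0 at least 2-fold higher in each G library. Over all genes compared, 5.14% (G3) to 18.9% (G14) were that much lower and 0.533% (G5) to 3.97% (G14) that much higher, so these counts were near the background. The median log2 ratio of the list ran from 0.26 (G3) to -0.47 (G13), beside -0.21 (G13) to 0.14 (G5) for all genes compared. KEAP1 itself had a median of -0.08 over the G libraries but ran from 0.64 in G3 to -0.73 in G13. NFE2L2, the factor KEAP1 holds back, had a median of 0.44. RBX1, a subunit of the ligase that works with KEAP1, was lowest (-1.41, 16.2 to 35.1 TPM against 62.5 TPM), and TXNRD1, a target of the pathway, highest (0.48). Of 7 apoptosome genes, 5 were compared and 0 passed 2-fold in any G library, a list too short to set against those shares, with medians from -0.41 (DIABLO) to 0.34 (CASP9).

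The beta-thymosins share only part of the name of prothymosin and are a separate family that binds actin. All 3 were below the control in 6 of 6 G libraries, as were 20.5% of all genes compared. TMSB10 went from 95 TPM in the control to between 18.4 and 41.3 TPM (median -1.67), TMSB4X had a median of -0.39 and TMSB15A of -0.75. TMSB10 was at least 2-fold lower in 6 of 6, as were 0.800% of all genes compared, and TMSB15A in G3. Their transcripts are short, 496 nt in TMSB10 and 685 nt in TMSB15A, and once the trend over length and GC content was removed the medians were -0.36 for TMSB10, -0.22 for TMSB4X and 0.18 for TMSB15A, which thereby changed direction.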

How the data were processed

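Per the labels' protocols, cDNA was joined into 8-fold arrays (MAS-Seq), sequenced on the PacBio Revio system and split into reads of single cDNA molecules. The submitters' processing notes name minimap2 2.17 and GRCh38 (hg38), with no role given. The isoform caller, its filters and the annotation are not given in the sources used here. Per the file headers, the authors deposited counts of full-length reads with matching TPM values, by isoform and library. The deposited TPM values equalled the count over 1 library total to within 0.005, so they hold no length term. These totals were 16801842 reads (control), 17848098 (G3), 25452447 (G5), 20831859 (G11), 26678538 (G12), 22794337 (G13) and 20946295 (G14), and TPM was recomputed from the count and the total. The listed isoforms held 98.1% to 98.6% of the reads of a G library. Empty cells were read as 0, and 3 reads are worth 0.112 to 0.179 TPM. Start positions count from 0 in the table and were raised by 1.

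Isoforms were summed by the stem of the Ensembl gene ID (14287 of 14294 genes had a symbol). Ratios have exact (Clopper-Pearson) 95% intervals, shares Wilson intervals and levels Poisson intervals. Log2 ratios used TPM + 0.5, which understates changes of low genes, and genes whose TPM averaged 5 or more were compared. Exons, length and GC content came from GENCODE 29, matched on transcript IDs without version, for 7736 of 7877 genes. With 1 library per group no test across genes was run. Ratio intervals and trend removal were tested on simulated data. Named were both members, isoforms holding at least 5%, the 5 genes most alike, the 3 compared genes nearest on each side, the extremes of each list, and RBFOX2. ENST00000389462.8, ENST00000448874.5, KEAP1, NFE2L2, HMGN3, DAXX, CHAF1A, SSRP1, TMSB15A, DNMT3B and POU5F1 were added after their values were seen. Members and lists were chosen with earlier results of these data known. Python 3.11.15, numpy 2.4.6, scipy 1.17.1 and pandas 2.3.3 were used.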

Additional observations from a re-analysis of the deposited data

How the results depend on the processing

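No paired analysis was possible because each group has 1 library and all carry the same replicate number. The median log2 ratio of PTMS (-2.91) was -2.82 with median-of-ratios scaling, which shifted the median of all genes by at most 0.16, -2.81 with reference isoforms only or isoforms averaging 1 TPM or more, and -2.82 with the leading isoform alone. It was -1.79 with the length and GC trend removed and -0.52 with the median of the other 6 libraries as reference. Without single G libraries it was -3.06 to -2.76. Under the other-library reference the PTMS value was 2.60 in G3 and 1.03 in G5, above 0, since those libraries then stand against lower ones. The value of G3 (-0.31) was -0.18 with reference isoforms only and 0.13 with the trend removed. The cause of the changes with the trend was not tested. PTMA (0.05) was 0.30 with the trend removed, and 0.01 to 0.14 under the other settings. PTMS minus PTMA (-2.91) was -2.02 with the trend removed. The leading PTMS isoform held a median of 89.2% over the 7 libraries, 96.3% of reference isoforms or of isoforms averaging 1 TPM or more, and 91.6% without isoforms of 1 control read. The leading PTMA isoform held 22.0%, 51.6% of reference isoforms and 29% of isoforms averaging 1 TPM or more. Among related genes compared, 3 were at least 2-fold lower and 1 higher in their median, against 6 lower and 2 higher at 1.5-fold. The count of 1 chromosome neighbour at least 2-fold lower became 0 with median-of-ratios scaling and 0 with the trend removed. The share of all genes past these thresholds in their median was not computed, so nothing is read from these counts. Leading-isoform, single-control-read, added-locus and neighbour settings were chosen after seeing the data; adding the locus without a gene ID gave -2.90.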
